A study of Mus musculus with 28 samples.

Results

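The 8 small RNA libraries of alveolar macrophages (AM) from co-ex mice exposed to ozone (O3), 4 from males and 4 from females, were compared directly between the sexes. They were chosen by genotype and exposure alone, and they make up 8 of the 28 libraries of the series. Males and females were deposited in separate tables that list 412 and 368 miRNAs, of which 337 are in both. Of these 337 miRNAs, 291 had at least 5 reads in at least 4 of the 8 libraries and were tested, and the other 46 were too low. The 31 miRNAs listed for females alone and the 75 listed for males alone were left out, and the shared miRNAs held between 99.88% and 99.97% of the reads of each library.

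Co-ex mice are transgenic for both human SP-A genes (6A2/1A0) on a C57BL/6J background that lacks mouse SP-A, so the deletion of the mouse gene is common to all groups used here. The mice were 12 weeks old, and females were synchronized for the estrous cycle. They breathed filtered air (FA) or O3 for 3 h, and AM were collected by lavage after 4 h of recovery. For reference, the same comparison was made in the co-ex mice after FA (4 males and 4 females) and in the SP-A knockout (KO) mice after O3 (3 males and 3 females). In each of these comparisons the sex of the mice and the deposited table change together and cannot be told apart. The labels give 4 exposed animals per group but do not tie a library to an animal.

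A mature miRNA guides a silencing complex to messenger RNAs, mostly by pairing of its seed, the bases near its 5′ end, and lowers their translation and stability. miRNAs with the same seed form families with overlapping targets, and neighbouring miRNAs are often cut from one primary transcript. AM are the resident phagocytes of the airspace, and SP-A, a collectin of the lung lining fluid, binds microbes and acts on AM. O3 is an oxidant gas that injures the airway lining and draws inflammatory cells into the lung.

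The mature sequences of the miRNAs with an adjusted p under 0.1, except miR-1a-3p, and of related miRNAs are given because the comparison of seed families turns on them. They are the RefSeq sequences of GRCm38.p6, written 5′ to 3′ with the seed, bases 2 to 8, in capitals. RefSeq held a mature sequence for 292 of the 337 shared miRNAs.
miR-181a-5p: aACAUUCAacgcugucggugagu
miR-181b-5p: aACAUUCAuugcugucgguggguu
miR-342-3p: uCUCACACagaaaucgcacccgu
miR-146b-5p: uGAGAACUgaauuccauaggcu
miR-146a-5p: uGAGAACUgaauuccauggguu
miR-652-3p: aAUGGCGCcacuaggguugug
miR-5126: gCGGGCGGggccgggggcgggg
miR-99b-5p: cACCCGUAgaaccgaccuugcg
let-7e-5p: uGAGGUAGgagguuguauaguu
miR-125a-5p: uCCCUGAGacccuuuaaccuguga
miR-125b-5p: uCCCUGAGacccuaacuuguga
miR-181a and miR-181b share a seed, as do miR-146a with miR-146b and miR-125a with miR-125b. All 22 bases of miR-5126 are G or C (100% GC), against a median of 47.8% over the 250 tested miRNAs with a sequence.

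The libraries held 41542, 180212, 248397 and 260115 reads on miRNAs in female replicates 1 to 4, and 386708, 430018, 517721 and 209935 in male replicates 1 to 4. Males had more reads on average, 386096 ± 129470 (SD, n = 4) against 182566 ± 100401, which an exact two-sided permutation test of the 70 relabellings did not separate (p = 0.0857, adjusted p = 0.129 over 3 library values). Female replicate 1, the shallowest library, stood apart with 44.8% of its reads on a list of 36 repeat-like entries, which were chosen by name because entries of this kind resemble repeats or ribosomal and transfer RNA. Male replicate 2 held 5.81% of its reads on a list of epithelial miRNAs, above the other males and within the female range. Levels are given as CPM, read counts scaled to a common total of reads on shared miRNAs after TMM normalisation. On the log2 CPM scale male replicate 2 correlated most closely with female replicate 3 (Pearson r = 0.92 across 291 miRNAs). Its r was 0.83 to 0.92 with the females and 0.86 to 0.91 with the other males, so it was about as close to both. Over all pairs, r ranged from 0.77 to 0.90 among females, from 0.86 to 0.96 among males and from 0.67 to 0.92 between sexes. Each call is also given without female replicate 1 and without male replicate 2. Of the myeloid markers, miR-223-3p and miR-142a-5p had reads in all 8 libraries, and miR-142a-3p had none in female replicate 1. The most abundant miRNAs were miR-21a-5p, let-7a-5p, let-7f-5p, miR-125a-5p and miR-146b-5p.

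After O3, 7 of the 291 tested miRNAs (2.41%) differed between co-ex males and females at an adjusted p under 0.1, by edgeR's quasi-likelihood test with Benjamini-Hochberg adjustment. miR-181a-5p, miR-181b-5p, miR-342-3p, miR-146b-5p and miR-652-3p were higher in males (5 of 291, 1.72%), and miR-1a-3p and miR-5126 were lower (2 of 291, 0.687%). None had an adjusted p under 0.05, and 59 of 291 (20.3%) had an unadjusted p under 0.05, of which 34 (11.7%) were higher and 25 (8.59%) lower in males. Over all 291, 143 (49.1%) had a log2 difference above 0 and the median was −0.027. All 7 were called without male replicate 2, where 66 of 270 miRNAs passed, and only miR-1a-3p passed without female replicate 1. None of the 7 passed without female replicate 2, male replicate 1 or male replicate 3. Over the 8 fits without 1 library, the highest edgeR adjusted p was 0.199 for miR-181a-5p, miR-181b-5p, miR-342-3p and miR-1a-3p. It was 0.242 for miR-5126, 0.329 for miR-146b-5p and 0.331 for miR-652-3p. The log2 differences of the 7 kept their sign in every alternative and leave-one-out fit.

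**Figure D1:**
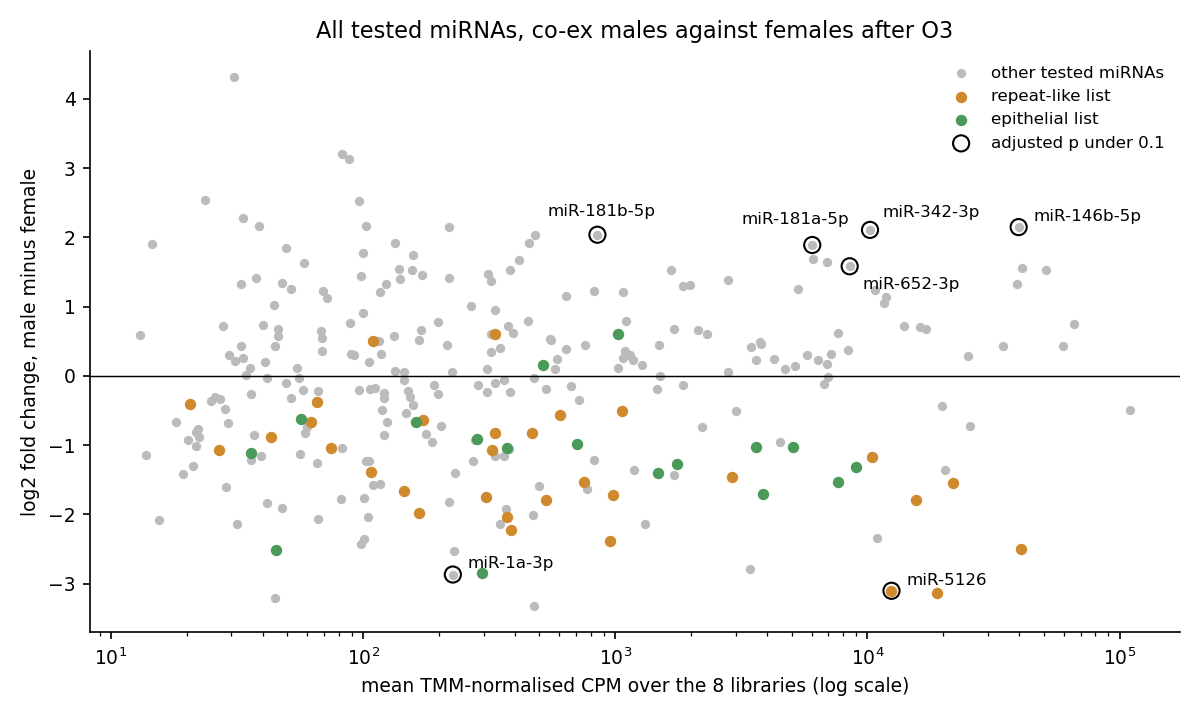
Log2 fold change (male minus female) of each of the 291 tested miRNAs against its mean CPM over the 8 co-ex O3 libraries, on a log axis. Circled points are the 7 miRNAs with an adjusted p under 0.1, and most points of the repeat-like and epithelial lists lie below 0.

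miR-181a-5p, a miRNA known for setting the sensitivity of antigen receptor signalling, was at 2992, 1880, 3039 and 2362 CPM in female replicates 1 to 4. In male replicates 1 to 4 it was at 11870, 8195, 12017 and 5965 CPM, so that the lowest male lay above the highest female. The log2 difference was 1.89 (SE 0.42, adjusted p = 0.0532 by edgeR). Its family member miR-181b-5p was at 306, 225, 475 and 319 CPM in females and at 1478, 1150, 1692 and 1146 CPM in males. The groups again did not overlap, and the log2 difference was 2.04 (SE 0.46, adjusted p = 0.0532 by edgeR). Without female replicate 1 these log2 differences were 1.95 and 1.98 (edgeR adjusted p = 0.125 and 0.133), and without male replicate 2 they were 2.02 and 2.17 (edgeR adjusted p = 0.0146 for both).

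Both miRNAs have 2 genes each, in 2 pairs of neighbours. Mir181a-1 (chr1:137966455-137966541, plus strand, GRCm38.p6) lies in an intron of Gm4258. Mir181b-1 (chr1:137966639-137966718) also lies in an intron of Gm4258, and in an exon of A430106G13Rik. Mir181a-2 (chr2:38852735-38852810) and Mir181b-2 (chr2:38853830-38853918) lie outside annotated genes on the plus strand. The reads of a mature miRNA cannot be split between its genes, but the opposite arms of miR-181a can. miR-181a-1-3p had 197 reads in all and a log2 difference of 1.13 (SE 1.12), and miR-181a-2-3p had 64 reads and −0.36 (SE 1.23), so neither arm was resolved at this depth. miR-181a-5p and miR-181b-5p differ at 3 positions, and miR-181d-5p, which differs from miR-181b-5p at 1, was not among the tested miRNAs.

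miR-342-3p comes from an intron of Evl (chr12:108658620-108658718, plus strand), a gene of actin regulation. It was at 3416, 3990, 5139 and 2868 CPM in females and at 19731, 7558, 26938 and 12250 CPM in males. The groups did not overlap, male replicate 2 was the lowest male, and the log2 difference was 2.11 (SE 0.48, adjusted p = 0.0532 by edgeR). The opposite arm, miR-342-5p, was at 165, 236, 291 and 95.4 CPM in females and at 1126, 264, 735 and 394 CPM in males. These values overlapped through male replicate 2, and the log2 difference of 1.67 (SE 0.61) had an edgeR adjusted p of 0.171. For miR-342-3p the log2 difference was 2.03 without female replicate 1 (edgeR adjusted p = 0.133) and 2.39 without male replicate 2 (edgeR adjusted p = 0.0104).

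miR-146b-5p is known to restrain Toll-like receptor signalling through IRAK1 and TRAF6. Its gene lies in an intron of Mfsd13a (chr19:46342762-46342870, plus strand). It was among the 5 most abundant miRNAs, at 9353, 5767, 29064 and 14375 CPM in females and at 93880, 43690, 77829 and 44279 CPM in males. All males lay above all females, with a log2 difference of 2.15 (SE 0.55, adjusted p = 0.0898 by edgeR). It was 1.96 without female replicate 1 (edgeR adjusted p = 0.137) and 2.39 without male replicate 2 (edgeR adjusted p = 0.0171). The opposite arm, miR-146b-3p, had 82, 53, 76 and 27 reads in males, while it had no read in female replicates 1, 2 and 4 and 15 reads in replicate 3. Its log2 difference was 3.13 (SE 1.21, adjusted p = 0.171 by edgeR), and it passed the filter through the males and 1 female.

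miR-652-3p, from an intron of Tmem164 on the X chromosome (chrX:142739000-142739097, plus strand), was at 3864, 3222, 6237 and 3694 CPM in females. In males it was at 17050, 8624, 14582 and 10728 CPM, above all females. The log2 difference was 1.58 (SE 0.42, adjusted p = 0.0988 by edgeR). It was 1.52 without female replicate 1 (edgeR adjusted p = 0.133) and 1.80 without male replicate 2 (edgeR adjusted p = 0.0163), and this call was also lost without female replicate 4 and without male replicate 4.

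miR-1a-3p, the miRNA of heart and skeletal muscle, was the miRNA with the smallest p. It was at 259, 512, 311 and 514 CPM in females and at 59.6, 56.5, 60.6 and 41.3 CPM in males. These are 11, 100, 76 and 140 reads in females and 21, 25, 28 and 9 reads in males, so the counts behind it are low. The log2 difference was −2.87 (SE 0.56, adjusted p = 0.0532 by edgeR), with values of −3.04 without female replicate 1 (edgeR adjusted p = 0.0339) and −2.87 without male replicate 2 (edgeR adjusted p = 0.0163). The list of muscle miRNAs took 0.0265% to 0.0604% of reads in females and 0.0043% to 0.0077% in males, and its part in the result was not tested.

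miR-5126, an entry made of G and C alone (chr1:84695839-84695915, plus strand, outside annotated genes on that strand), was at 47660, 26168, 7130 and 8290 CPM in females. In males it was at 1118, 4582, 820 and 3865 CPM. The groups did not overlap, but the females spread widely, and the log2 difference was −3.10 (SE 0.76, adjusted p = 0.0792 by edgeR). It was −2.44 without female replicate 1 (edgeR adjusted p = 0.141) and −3.53 without male replicate 2 (edgeR adjusted p = 0.0171). It belongs to the repeat-like list, which is described with the other lists.

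**Figure D2:**
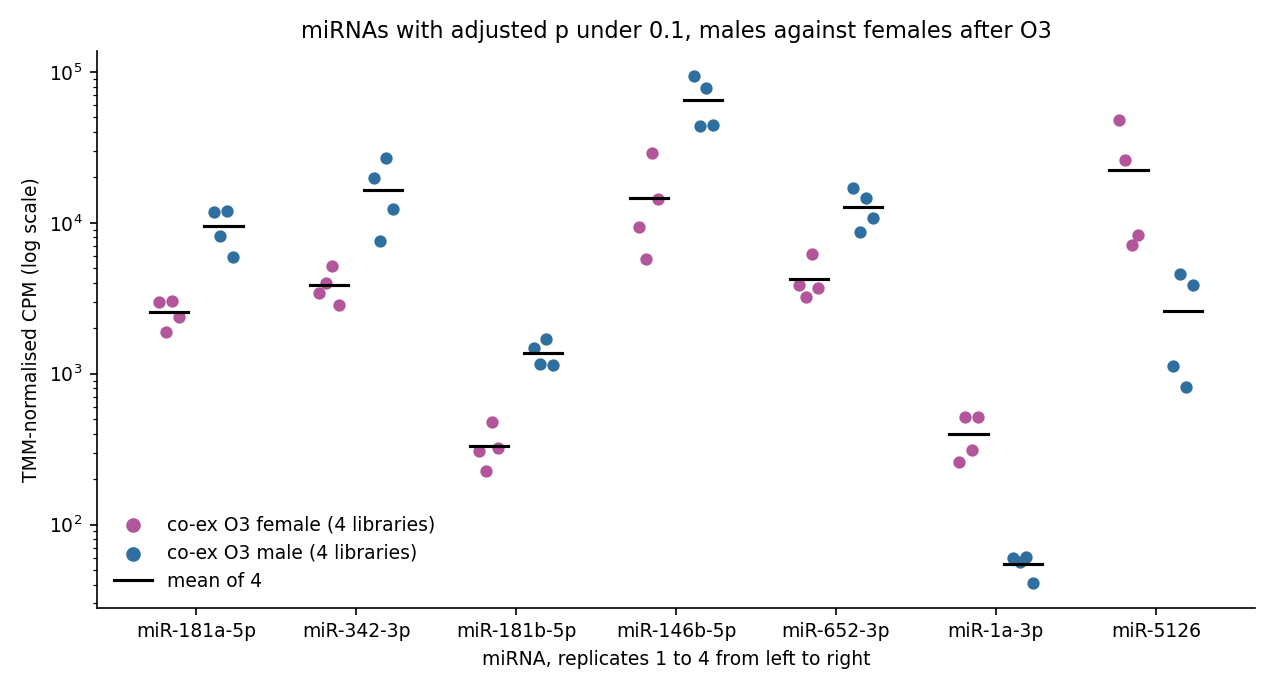
CPM (log axis) of the 7 miRNAs with an adjusted p under 0.1 in each co-ex O3 library, females in pink and males in blue, with the mean of 4 as a bar. For each miRNA all 4 libraries of one sex lie above all 4 of the other, and miR-5126 has the widest spread within a sex.

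Groups did not overlap for 41 of 291 miRNAs (14.1%), with 29 (9.97%) higher and 12 (4.12%) lower in males. Just outside the threshold, 9 miRNAs shared an adjusted p of 0.105 by edgeR, and none of the 9 had overlapping groups. The 5 with the smallest p among them were miR-449a-5p, a miRNA of ciliated epithelium (log2 difference −2.85, SE 0.79), miR-99b-5p (1.56, SE 0.43), miR-425-3p (3.20, SE 0.93), miR-140-3p (1.38, SE 0.40) and miR-425-5p (1.53, SE 0.45). miR-125a-5p (1.52, SE 0.45) and miR-23a-3p (1.33, SE 0.40) were among the other 4. miR-92b-3p (−2.33, SE 0.69) and miR-361-3p (2.04, SE 0.61) were the last of the 9, and these names were chosen after their values were seen. miR-425-3p had 0, 1, 3 and 10 reads in females and 82, 30, 69 and 34 in males, so it passed the filter through the males and 1 female. Near it, miR-191-5p, 464 bases upstream of miR-425-5p on chromosome 9, had a log2 difference of 0.42 (SE 0.52) with overlapping groups.

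The miR-99b, let-7e and miR-125a genes lie together in Spaca6 on chromosome 17, and each of the 5 tested arms from them was higher in all 4 males than in any female, beside 9.97% of all tested miRNAs. miR-99b-5p was at 14913, 24765, 28920 and 14885 CPM in females and at 67142, 34866, 81199 and 62452 CPM in males. miR-125a-5p, 623 bases downstream, was at 25397, 16088, 40743 and 23487 CPM in females and at 99744, 43640, 99405 and 61361 CPM in males. For let-7e-5p, 172 bases downstream and named after its values were seen, the log2 difference was 1.05 (SE 0.43). None of the 5 arms passed the threshold (edgeR adjusted p from 0.105 to 0.284), and 4 had an unadjusted p under 0.05. miR-125b-5p, which has the seed of miR-125a-5p but other genes, was at 1602 to 5484 CPM in females and 1270 to 4318 CPM in males, with overlapping groups and a log2 difference of −0.50 (SE 0.51).

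Other members of seed families also differed from one another. miR-146a-5p, which shares its seed with miR-146b-5p and differs from it at 2 positions, was at 777, 307, 2342 and 492 CPM in females and at 1790, 969, 986 and 504 CPM in males. The groups overlapped, and the log2 difference was 0.11 (SE 0.65) beside 2.15 for miR-146b-5p. Since the authors' counting rule for reads that fit both is not given in the sources used here, their split is uncertain. miR-103-3p was higher in all males (log2 difference 1.14, SE 0.41, edgeR adjusted p = 0.171), and miR-107-3p, which differs from it at 1 position, had overlapping groups (0.51, SE 0.59). These differences between family members were not tested as such.

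The lists of miRNA families and cell types describe the rest by counts and medians, to be read beside the median of −0.027 over all tested miRNAs. In the miR-181 list, 2 of 4 tested members passed, beside 2.41% of all tested miRNAs, and the median was 1.51. The miR-125/99/100 list had a median of 0.56 with 3 of 8 members at an unadjusted p under 0.05, and the miR-23/24/27 list had 0.32 with 2 of 9, beside 20.3% of all tested miRNAs. Within the latter, miR-23a-3p was higher in all males, as was miR-23b-3p (1.65, SE 0.52), while miR-24-3p (0.32, SE 0.43) and miR-27b-3p (−0.12, SE 0.37) had overlapping groups. No member passed in the let-7 list (9 tested, median 0.37), the miR-17/92 group (8 tested, 0.42), the miR-15/16 list (5 tested, 0.41), the miR-29 list (5 tested, −0.27) or the miR-30 list (8 tested, −0.084). In the let-7 list the most abundant members had log2 differences of 0.75 (let-7a-5p, SE 0.44), 0.43 (let-7f-5p, SE 0.45), −0.72 (let-7c-5p, SE 0.56) and −0.43 (let-7g-5p, SE 0.39).

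**Figure D3:**
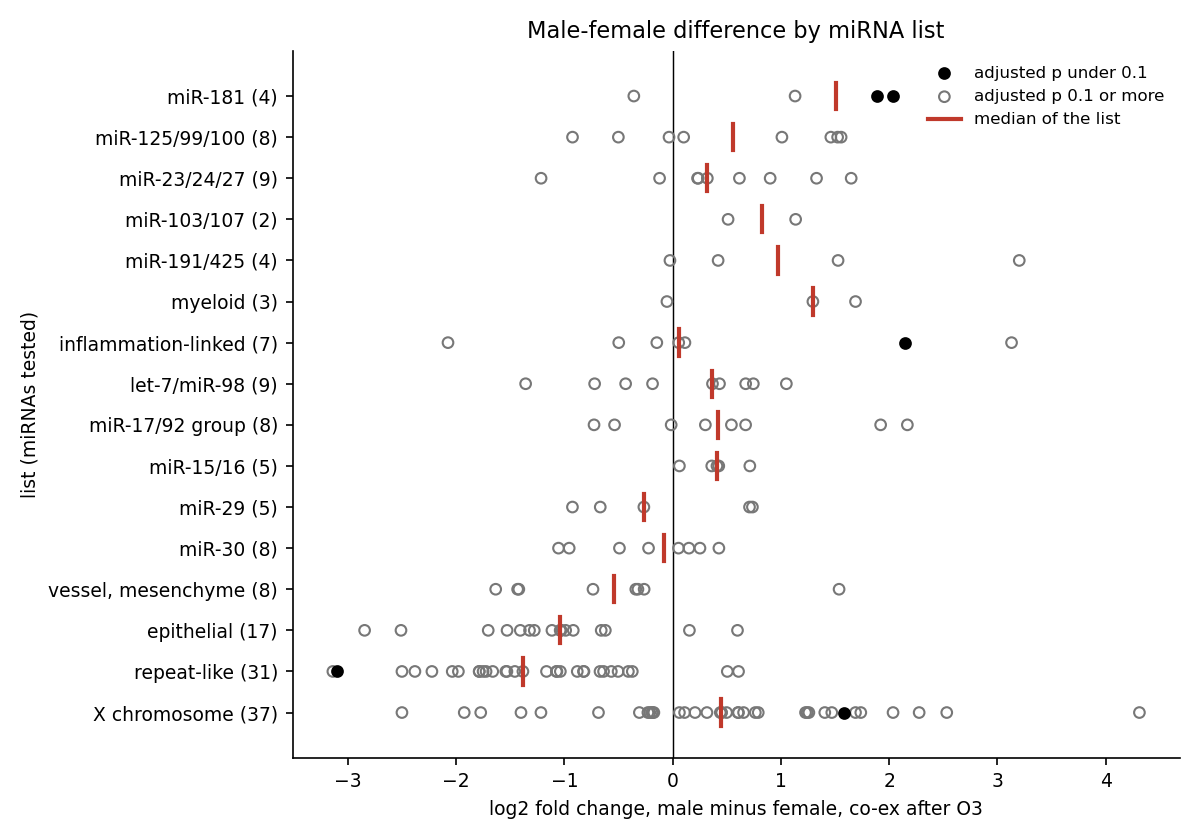
Log2 fold change (male minus female, co-ex after O3) of each tested miRNA by list, with the number tested in brackets, filled points for an adjusted p under 0.1 and a red bar at the median. Among the lists drawn, the medians run from −1.38 for the repeat-like list to 1.51 for the miR-181 list, and the muscle list, with 2 tested members and a median of −2.23, is not drawn.

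Among myeloid markers, miR-223-3p, which is abundant in granulocytes and also found in macrophages, was at 1084, 1526, 5672 and 3206 CPM in females and at 13958, 5454, 11346 and 6414 CPM in males. The groups overlapped by male replicate 2 and female replicate 3 (log2 difference 1.69, SE 0.57, edgeR adjusted p = 0.154). miR-142a-5p, a miRNA of blood cell lineages, had a log2 difference of 1.30 (SE 0.54, edgeR adjusted p = 0.193), and miR-142a-3p, with 360 reads in all, had −0.052 (SE 0.94), a sign that turned under many alternatives. In the list linked to inflammation only miR-146b-5p passed, 1 of 7 tested members, beside 2.41% of all tested miRNAs. The median of this list was 0.057. miR-21a-5p, the most abundant miRNA of the libraries, was at 74399, 138237, 149040 and 154418 CPM in females and at 91208, 44026, 107075 and 123272 CPM in males (log2 difference −0.50, SE 0.44). miR-155-5p had a log2 difference of −0.15 (SE 0.51), and both overlapped between the sexes.

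No epithelial miRNA passed the threshold. The 17 tested members of the list, among them miRNAs of ciliated and secretory cells, had a median log2 difference of −1.04, and 2 of them were above 0, beside 49.1% of all tested miRNAs. The smallest p belonged to miR-449a-5p, at 801, 241, 221 and 825 CPM in females and 34.0, 181, 32.4 and 36.7 CPM in males. The summed list took 4.17%, 4.32%, 6.23% and 6.04% of reads in females and 0.764%, 5.81%, 0.498% and 1.59% in males, so male replicate 2 lay within the female range. The same library held the highest male values of miR-200b-3p (11849 CPM), a guardian of the epithelial state, and of miR-34b-3p (11584 CPM), miR-375-3p (9219 CPM) and miR-200c-3p (5436 CPM). The log2 differences of these 4 were −1.32, −1.53, −1.03 and −1.03 (SE from 0.63 to 0.80). Vessel and mesenchyme markers had a median of −0.54 over 8 tested members, with 1 above 0, beside 49.1% of all tested miRNAs. They took 0.342% to 1.30% of reads in females and 0.0905% to 0.689% in males. Among them were miR-143-3p (−1.43, SE 0.93), miR-10a-5p (−0.74, SE 0.53) and miR-145a-5p, the 1 member above 0 (1.54, SE 1.00). Fewer cells of a type and less RNA per cell cannot be told apart in such libraries, and the part of these cell types in the calls was not tested.

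Of the 31 tested members of the repeat-like list, 2 had a log2 difference above 0, beside 49.1% of all tested miRNAs, and the median was −1.38. At an unadjusted p under 0.05, 9 of the 31 were lower in males, beside 8.59% of all tested miRNAs. Of these, miR-5126 alone passed the threshold, beside 0.687% called lower over all. The whole list took 44.8%, 24.5%, 6.84% and 12.1% of reads in females and 2.14%, 7.30%, 1.71% and 8.94% in males, with overlap between the sexes. Its most abundant members were miR-2137 (log2 difference −2.50, SE 0.96), miR-6240 (−1.54, SE 0.61), miR-3473e (−1.79, SE 0.78) and miR-6538 (−3.14, SE 1.22). Because these reads enter the total, the comparison was repeated with the 35 entries of the list that are among the shared miRNAs removed first. All 6 remaining called miRNAs passed again, and 17 of 260 passed in all. miR-181a-5p was then at 1.72, miR-342-3p at 1.89, miR-181b-5p at 1.88, miR-146b-5p at 2.00, miR-652-3p at 1.41 and miR-1a-3p at −3.06 on the log2 scale. With the epithelial list removed as well, 24 of 243 passed, again with all 6.

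**Figure D4:**
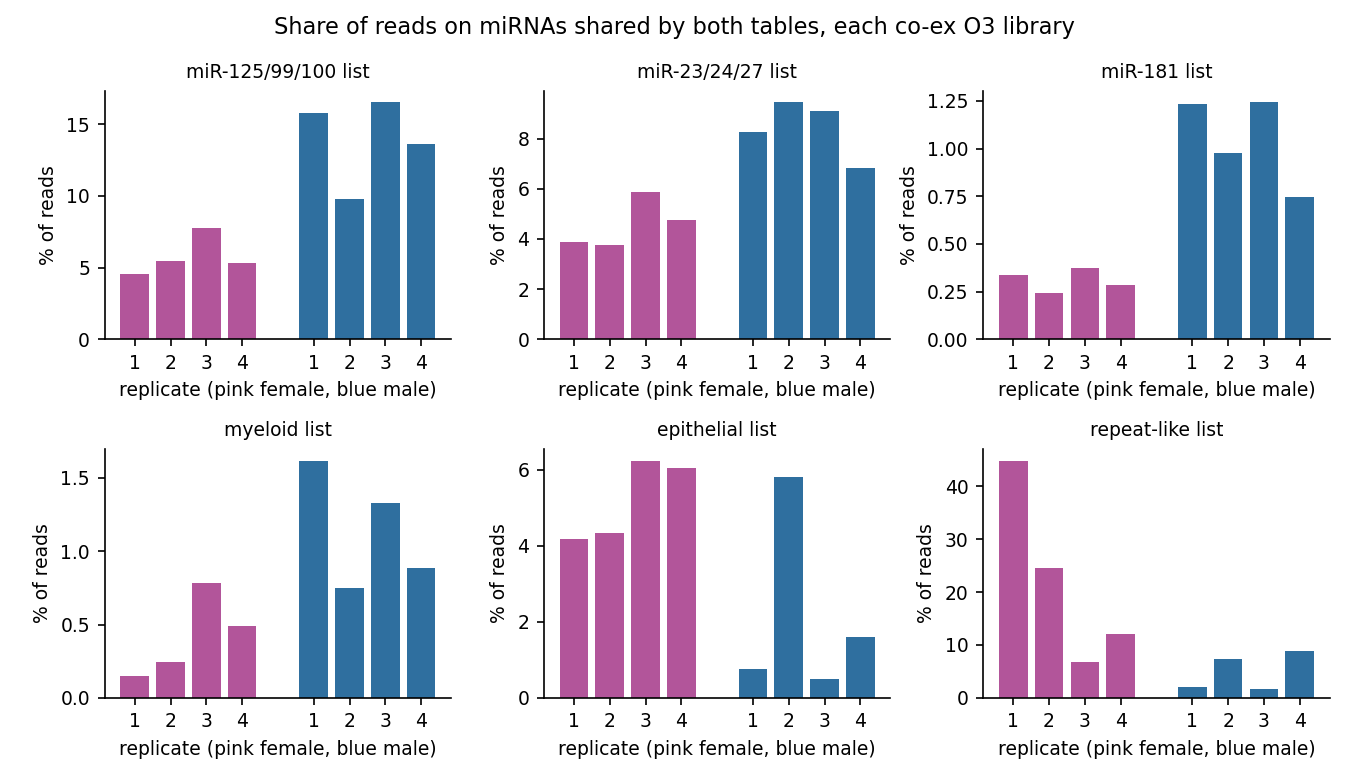
Share of reads (percent of reads on the 337 shared miRNAs) taken by 6 lists in each co-ex O3 library, female replicates 1 to 4 in pink and male replicates 1 to 4 in blue, with axes that start at 0. The miR-125/99/100, miR-23/24/27 and miR-181 lists do not overlap between the sexes, while male replicate 2 reaches the female level for the epithelial list and female replicate 1 is highest for the repeat-like list.

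The X chromosome carries the genes of 37 tested miRNAs. Of them, 25 had a log2 difference above 0, beside 49.1% of all tested miRNAs, and the median was 0.45. Of the 37, only miR-652-3p passed the threshold, beside 2.41% of all tested miRNAs. At an unadjusted p under 0.05, 8 were higher in males, miR-652-3p included, and 3 were lower, beside 11.7% and 8.59% of all tested miRNAs. The most abundant of the 37 were miR-2137 (−2.50, SE 0.96), miR-1298-5p (1.24, SE 0.47), miR-652-3p and miR-223-3p. By base composition, the 32 miRNAs with a sequence that were higher at an unadjusted p under 0.05 had a median GC of 50.0%, and the 21 that were lower had 47.8%.

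Set beside the other comparisons, the 7 miRNAs lay in the same direction in co-ex mice after FA (7 of 7) and 2 of them passed there, where 26 of 293 (8.87%) passed by edgeR. Over the 274 miRNAs tested in both comparisons, the share in the same direction was not counted, and the log2 differences correlated with Pearson r = 0.66. Of the 41 miRNAs whose groups did not overlap after O3, 38 lay in the same direction after FA, but only 9 had groups that did not overlap there either. miR-342-3p was at 1.91 (SE 0.54) and miR-5126 at −3.48 (SE 0.98) on the log2 scale after FA, and these were the 2 that passed. The FA groups of miR-342-3p and miR-181a-5p did not overlap, and those of the rest of the 7 did, miR-5126 included. miR-181a-5p was at 1.28 (SE 0.45), miR-181b-5p at 1.64 (SE 0.58), miR-146b-5p at 1.09 (SE 0.54), miR-652-3p at 1.38 (SE 0.52) and miR-1a-3p at −2.53 (SE 1.06). The difference between the sexes after O3 less that after FA was itself tested over the 16 co-ex libraries. It was not past the threshold for any of the 7, with estimates from −0.17 (SE 1.17) for miR-1a-3p to 1.42 (SE 0.74) for miR-146b-5p, and 1 of 330 miRNAs (0.303%) passed. That one was miR-486b-5p, an erythroid miRNA, named after its values were seen.

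In KO mice after O3, 0 of 356 miRNAs passed by edgeR and 29 (8.15%) had an unadjusted p under 0.05, with 6 past the threshold by DESeq2. The log2 differences there were 0.043 (SE 0.30) for miR-181a-5p, −0.15 (SE 0.31) for miR-342-3p, 0.37 (SE 0.29) for miR-181b-5p, 0.31 (SE 0.36) for miR-146b-5p and 0.11 (SE 0.33) for miR-652-3p. miR-5126 was at −0.98 (SE 0.35), with an unadjusted p of 0.0199 and an adjusted p of 0.443 by edgeR. With 3 libraries a side, the KO groups of miR-181b-5p and miR-5126 did not overlap, and those of the rest of the 7 did. Groups were also apart in KO for miRNAs that were not called, such as miR-142a-5p, let-7g-5p and miR-92b-3p. The share of such miRNAs over all tested in KO was not counted, so no weight is put on these 2. Of the 7 miRNAs, 6 lay in the same direction as in co-ex after O3. Over the 270 miRNAs tested in both comparisons, the share in the same direction was not counted, and the log2 differences correlated with Pearson r = 0.31. miR-1a-3p was at 12.0, 472 and 76452 CPM in KO females and at 43.4, 283 and 38.8 CPM in KO males, with a log2 difference of −7.72 (SE 2.52), and 1 female library lay far above the others. The difference in co-ex less that in KO was tested over the 14 O3 libraries and 307 miRNAs, of which 0 passed by edgeR and 41 (13.4%) had an unadjusted p under 0.05, with 14 past the threshold by DESeq2. All 7 miRNAs were among the 41. The estimates were 2.04 (SE 0.52) for miR-181a-5p, 2.45 (SE 0.63) for miR-342-3p, 1.86 (SE 0.55) for miR-181b-5p, 2.03 (SE 0.71) for miR-146b-5p, 1.66 (SE 0.55) for miR-652-3p and −1.98 (SE 0.91) for miR-5126. For miR-1a-3p it was 4.98 (SE 2.07), opposite in sign to its co-ex difference, with the KO female library at 76452 CPM in the fit. The edgeR adjusted p ranged from 0.201 to 0.346. These 7 had been selected in the same co-ex libraries, so the count is a description.

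**Figure D5:**
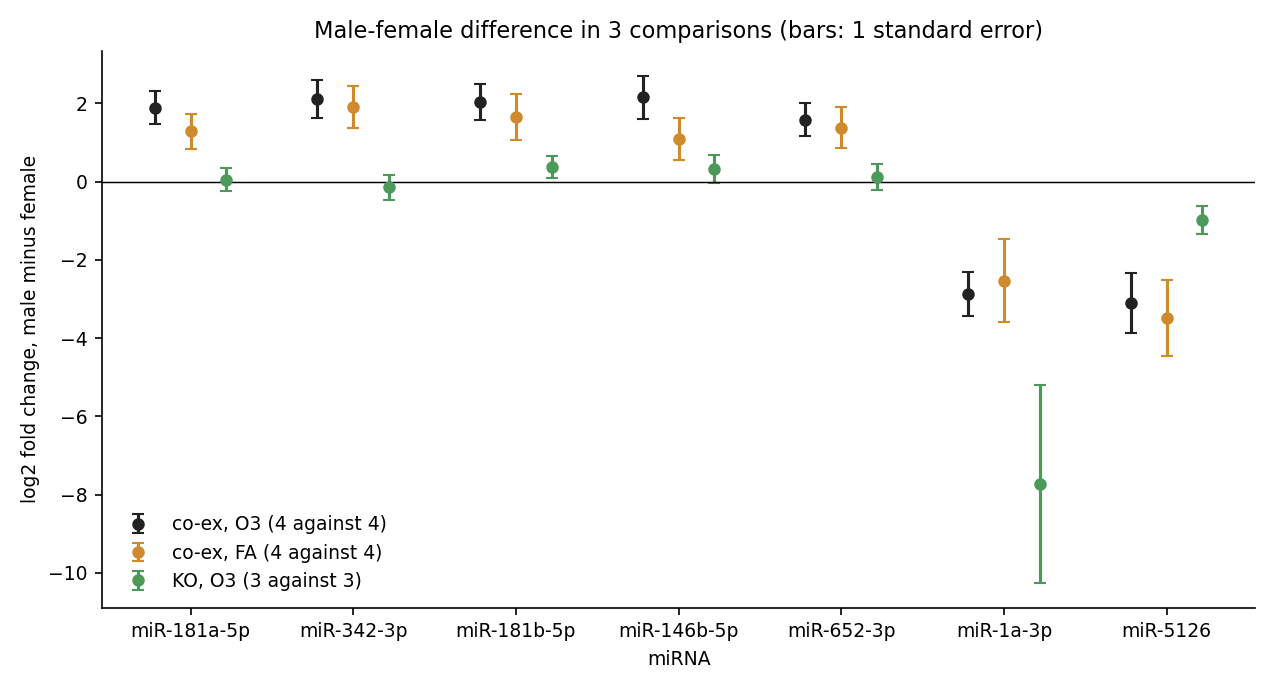
Log2 fold change (male minus female) of the 7 miRNAs in co-ex mice after O3, co-ex mice after FA and KO mice after O3, with bars of 1 SE. The 5 miRNAs that are higher in co-ex males after O3 lie between −0.15 and 0.37 in KO, and miR-1a-3p in KO has the longest error bar.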

How the data were processed

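AM small RNA libraries were made with the NEXTflex Small RNA kit, and per the labels and the paper the authors trimmed reads with the FASTX-Toolkit, counted miRNAs with Chimira and tested them with edgeR. The genome build and miRNA release are not given in the sources used here. The authors deposited a normalized signal, reads divided by a size factor, in 1 table per genotype and sex. The deposited log2 fold changes, p-values and q-values and the rank score of the authors' own comparisons of exposures were not used. All values of each library (100%) were whole multiples of its smallest value, within 0.001, so reads were recovered and normalised jointly.

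The main test was the quasi-likelihood test of edgeR 4.0.16 in R 4.3.3 with TMM, on the 337 miRNAs listed in both tables with at least 5 reads in at least 4 libraries (3 for KO), Benjamini-Hochberg adjustment and a threshold of 0.1. This count test was used on recovered reads. DESeq2 1.42.0 and limma 3.58.1 served as alternatives. Library values were compared by exact permutation with scipy. Fits were tested on simulated data. p-values measure the spread between these libraries, and reads without molecular identifiers are not independent molecules.

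The members, lists and alternatives were chosen with earlier results of these data known. Named are the called miRNAs, the 5 next by p, the 5 with the most reads, up to 4 abundant members of a list, the 4 most abundant X-linked miRNAs and partner arms. Removing the repeat-like and epithelial lists was added after seeing the data. Hosts come from GENCODE M21 and miRNA positions from RefSeq.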

Additional observations from a re-analysis of the deposited data

Results flagged for a closer look

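Of 146 sets of 4 values, 8 had a library far from the other 3 (Dixon's test), where chance gives about 1 in 20. Male replicate 2 was such a library in 4 of them, with a miR-449a-5p level of 181 CPM, a miR-375-3p level of 9219 CPM and a let-7c-5p level of 43156 CPM, all above the other males, and a share of reads on the inflammation-linked list of 9.22%, below them. Female replicate 3 had miR-146b-3p at 61.4 CPM, where the other females had no read. Male replicate 4 had 0.997% of reads on the list of miR-191 and miR-425, male replicate 1 had 0.108% on the lymphoid list, and female replicate 2 had 0.427% on the red cell list, each the highest of its group.

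The difference between the sexes itself differed between exposures for miR-486b-5p, by 5.25 on the log2 scale (SE 1.07, edgeR adjusted p = 0.0205). It was at 2992, 3918, 2994 and 2703 CPM in co-ex females after O3 and at 8531, 16822, 3645 and 995 CPM in males. After FA it was at 18926, 12884, 126724 and 17379 CPM in females and at 1531, 4211, 2571 and 3643 CPM in males. The difference did not pass without FA female replicate 3, O3 female replicate 1, FA male replicate 1, FA male replicate 3 or O3 male replicate 1.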

How the results depend on the processing

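The 7 calls of co-ex males against females after O3 became 18 with DESeq2 size factors, 60 with DESeq2, 41 with limma, 92 with voom and quality weights, 35 with at least 5 reads in all 8 libraries, 19 with filterByExpr, 25 with all 16 co-ex libraries in the fit, 17 without the repeat-like list, 24 without the epithelial list too, and 0 at a threshold of 0.05 (59 at an unadjusted p under 0.05). The 7 were among the calls of each of these alternatives but the last, except miR-5126 where its list was removed. Without filter 10 passed, and 7 with total scaling, own-table totals or robust fitting. Leaving out 1 library gave 0 to 66 calls: 1, 0, 25 and 7 without female replicates 1 to 4, and 0, 66, 0 and 8 without male replicates 1 to 4. After FA, 26 became 60 with DESeq2 and 10 to 71 without 1 library, with 10, 71 and 11 without female replicates 1, 2 and 4 and 14 without male replicate 1. In KO, 0 became 6 with DESeq2 and 0 to 1 without 1 library (1 without male replicate 2). The exposure difference gave 0 to 1 without 1 library. The genotype difference gave 14 with DESeq2 and 0 to 17 without 1 library (17 without co-ex male replicate 2, 13 without co-ex female replicate 3). The causes were not tested.

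With the replicate number as a block, 42 passed after O3 (all 7 among them), 43 after FA, and 0 for the exposure difference. Same-numbered libraries deviated together with r of 0.062, 0.26, 0.34 and 0.19, of which the first is under 0.1. Male replicates 2, 3 and 4 matched the female of their own number best, and male replicate 1 matched female replicate 3. The labels name no shared batch or day, so the libraries were treated as sharing only a number, and whether they are paired is not settled by these values. Of 1075 fits of single miRNAs, 827 kept side and direction, 193 gained a call, 29 lost one and 26 turned. miR-142a-3p turned to 0.062 (DESeq2 size factors), 0.036 (no filter), 0.086 (DESeq2), 0.85 (replicate block), 0.23 (filterByExpr), 1.27 (limma), 0.62 (voom) and 0.38 (16 libraries), and ranged from −0.42 to 1.46 without 1 library. With 16 libraries miR-155-5p turned to 0.10, miR-27b-3p to 0.027 and miR-181a-2-3p to 0.010, the last also to 0.20 with limma. miR-146a-5p turned to −0.0018 without the repeat-like list and −0.092 without both lists. Without 1 library miR-146a-5p ranged from −0.26 to 1.06, miR-155-5p from −0.41 to 0.22, miR-27b-3p from −0.26 to 0.087, miR-181a-2-3p from −0.64 to 0.083 and miR-191-5p from −0.097 to 0.67. With 41542 reads in female replicate 1, 3 reads correspond to 72.3 CPM there before TMM, which limits low miRNAs.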
